A study of Mus musculus with 6 samples.

Results

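Meningeal fibroblasts are represented here by 10 genes other than collagens, chosen by name: Dcn, Bgn, Lum, Fmod, Ogn, Foxc1, Foxc2, Foxd1, Ptgds and Slc22a6. The choice was made with earlier results of these data known. Each gene had 1 probe, so that 10 of the 55681 probes of the array were followed, and all 10 gene names were found. They were compared between 2 magnetically sorted fractions of cells from neonatal cerebellum of wild-type CD1 mice, aged postnatal days 1 to 3 according to the sample labels. The A+/G+ fraction is named for ACSA-2, an epitope of the sodium pump subunit encoded by Atp1b2, and the glutamate transporter GLAST, encoded by Slc1a3. The A-/G+ fraction is named for GLAST without ACSA-2. Each fraction was measured in 3 biological replicates of 50000 cells on 1 array each, and no treatment or transgene is named for these samples. Cerebella of either sex were pooled before sorting. The methods of the paper name another strain background and an earlier age, which could not be settled from the sources used here.

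The fractions were not sorted in the same way. A+/G+ cells were taken in 1 positive selection with ACSA-2 beads, without a selection for GLAST. The paper counted the rare ACSA-2+ cells without GLAST as A+/G+, and it reports both fractions as enriched rather than pure. For A-/G+ cells, those carrying L1CAM, ACSA-2, CD45, PSA-NCAM or Ter119 were depleted first, and GLAST+ cells were then selected. A difference between the fractions and a difference between these procedures cannot be told apart. Neither can slide and fraction, since slide 1 carried every A+/G+ sample and slide 2 every A-/G+ sample. In bulk RNA, furthermore, fewer cells of a type and less RNA per cell cannot be told apart. The log2 signal of the sorting antigen Atp1b2 differed by 2.16, with A+/G+ above A-/G+ (adjusted p = 0.00725, limma), and the difference of Slc1a3 was -1.19 (adjusted p = 0.0733, limma).

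The leptomeninges are the thin membranes on the surface of the brain, and their fibroblasts arise from mesenchyme and neural crest rather than from the neural tube. These cells deposit a collagen-rich matrix in which small leucine-rich proteoglycans bind collagen fibrils and growth factors. They also depend on forkhead transcription factors for their development, and they secrete prostaglandin D2 synthase and transport organic anions between the cerebrospinal fluid and the blood. GLAST+ astroglial precursors, at which the sort was aimed, belong to another lineage.

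A spot of the array holds a probe of 60 bases. The probe of Bgn, which lies within the coding sequence and is shown as an example of what was hybridized, reads 5′ to 3′ as follows (mm9, chrX:70738554-70738613, + strand).
Bgn: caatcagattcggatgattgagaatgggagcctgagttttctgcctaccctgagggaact

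Upstream sequences are shown for Ptgds, Slc22a6, Fmod and Foxc1, the 4 genes that met both limits given below and differed in the same direction. They comprise the 250 bases before the start of the gene in RefSeq (GRCm38.p6), written 5′ to 3′ on the strand of the gene. Capitals mark the E-box CANNTG, a core to which basic helix-loop-helix factors bind, and the GC box GGGCGG, a core for Sp factors, on either strand.
Ptgds (chr2:25469750-25469999, - strand): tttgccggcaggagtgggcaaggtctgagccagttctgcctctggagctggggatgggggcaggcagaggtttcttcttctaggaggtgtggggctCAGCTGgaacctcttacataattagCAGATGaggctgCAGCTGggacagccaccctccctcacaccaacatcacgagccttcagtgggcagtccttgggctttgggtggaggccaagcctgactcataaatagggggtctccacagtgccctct
Slc22a6 (chr19:8617746-8617995, + strand): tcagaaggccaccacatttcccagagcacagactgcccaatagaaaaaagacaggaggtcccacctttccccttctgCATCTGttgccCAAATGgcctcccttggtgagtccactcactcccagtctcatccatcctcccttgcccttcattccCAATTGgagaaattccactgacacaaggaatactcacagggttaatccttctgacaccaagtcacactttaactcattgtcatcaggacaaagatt
Fmod (chr1:134037004-134037253, + strand): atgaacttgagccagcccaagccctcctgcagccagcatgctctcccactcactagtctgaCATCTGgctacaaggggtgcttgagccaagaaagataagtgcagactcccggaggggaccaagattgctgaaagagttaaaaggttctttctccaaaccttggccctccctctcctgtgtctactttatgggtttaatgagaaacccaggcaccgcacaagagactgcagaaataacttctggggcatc
Foxc1 (chr13:31806396-31806645, + strand): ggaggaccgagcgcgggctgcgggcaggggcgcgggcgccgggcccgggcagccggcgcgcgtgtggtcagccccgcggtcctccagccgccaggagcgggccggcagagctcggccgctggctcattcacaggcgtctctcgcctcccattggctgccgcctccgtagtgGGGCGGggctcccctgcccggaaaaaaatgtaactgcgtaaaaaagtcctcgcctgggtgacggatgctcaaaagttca

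Upstream sequences were given for 7 of the 10 genes, the exceptions being Dcn, Lum and Foxc2. An E-box occurred in 6 of the 7, compared with 66.2% of all 32851 RefSeq promoters, and a GC box in 3 of the 7, compared with 32.7%. The forkhead core TAAACA occurred in 0 of the 7, compared with 12.0% of all promoters. The sequence of Foxc1 held 29 CpG dinucleotides, whereas those of Fmod and Ptgds held 2 each and that of Slc22a6 held 0, compared with a median of 6 over all promoters. These matches describe the letters of the windows and no binding.

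All 10 genes had their 3 A+/G+ arrays above their 3 A-/G+ arrays, an order shown by 12.7% of all probes. The adjusted p was at most 0.05 for 6 of the 10 (Bgn, Lum, Fmod, Foxc1, Ptgds and Slc22a6), compared with 4.65% of all probes that passed this limit in the same direction. Of these 6, Fmod, Foxc1, Ptgds and Slc22a6 also had medians at least 4-fold apart, the size limit of the study, which 1.53% of all probes met together with the limit on p. None of the 10 genes was higher in A-/G+, compared with 4.64% of all probes, and there the count at an unadjusted p below 0.05 was 0 by limma, and the methods' t-test also gave 0. The median difference of the 10 genes was 2.16 on the log2 scale, whereas that of all probes was -0.04. Values are log2 signals after quantile normalization, differences are A+/G+ minus A-/G+, and an exact permutation test (two-sided) gave p = 0.1 for each gene, the smallest that 3 arrays against 3 allow.

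**Figure D1:**
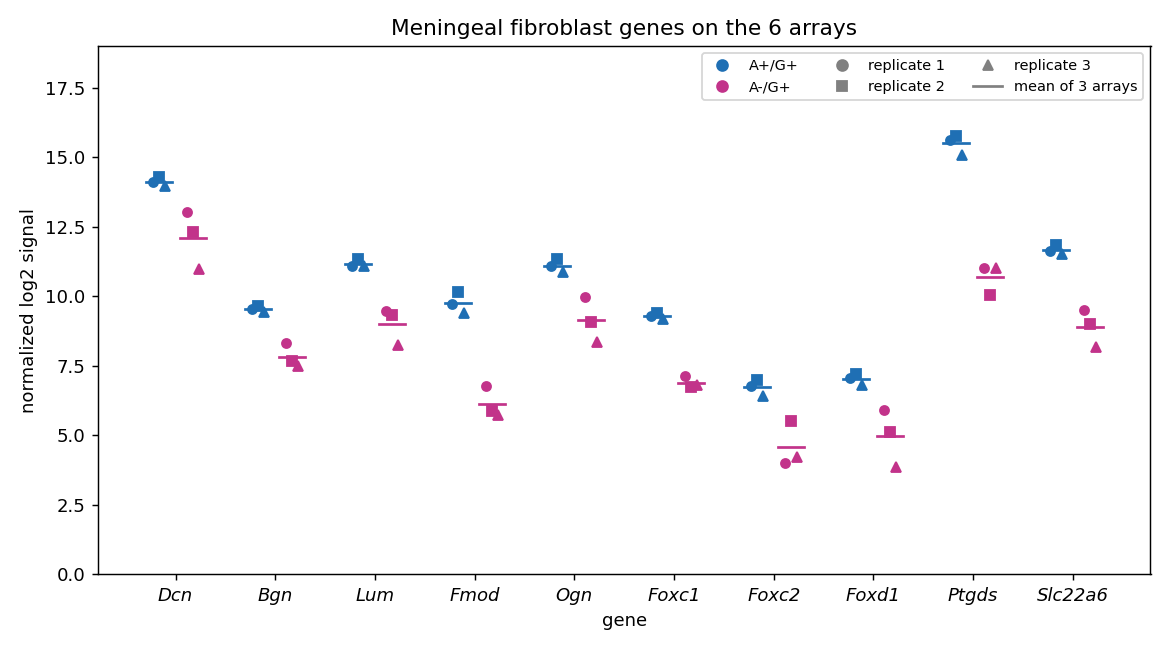
Normalized log2 signal (vertical axis) of the 10 genes (horizontal axis) on each of the 6 arrays, with A+/G+ in blue, A-/G+ in magenta, a symbol for each replicate number and a line at the mean of 3 arrays. For every gene the A+/G+ arrays lie above the A-/G+ arrays, and the A-/G+ arrays are spread more widely.

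Ptgds, the lipocalin-type synthase that makes prostaglandin D2 and is secreted into the cerebrospinal fluid, differed most. Its probe lies on the minus strand at chr2:25322232-25322291 (mm9). The signal was 15.62, 15.78 and 15.09 in A+/G+ replicates 1, 2 and 3 and 11.02, 10.04 and 11.01 in A-/G+ replicates 1, 2 and 3. The A-/G+ array of replicate 2 was the lowest, and the gap between the fractions exceeded the range within either. The means of 15.49 ± 0.36 (SD, n = 3) and 10.69 ± 0.56 (SD, n = 3) differed by 4.81 (SE 0.35, adjusted p = 0.00559, limma), with medians 24.4-fold apart.

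Slc22a6, an organic anion transporter of the plasma membrane, was measured at chr19:8700868-8700927. It gave 11.63, 11.83 and 11.53 in A+/G+ and 9.51, 8.98 and 8.16 in A-/G+, in the order of the replicate numbers. Thus its A+/G+ arrays lay close together, while its A-/G+ arrays covered more than 1 log2 unit. The difference was 2.78 (SE 0.36, adjusted p = 0.0182, limma) and the medians were 6.29-fold apart. The adjusted p of Slc22a6 was above 0.05 without any single A+/G+ array and without A-/G+ replicate 2.

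Among the 5 small leucine-rich proteoglycans, 3 were higher in A+/G+ by the limit on p, and Fmod was the only one of them to meet the size limit as well. Fmod encodes fibromodulin, which binds collagen fibrils and regulates their thickness, and its probe lies at chr1:135943998-135944057. Its signal was 9.70, 10.15 and 9.38 in A+/G+ replicates 1, 2 and 3, compared with 6.77, 5.88 and 5.74 in A-/G+. No array of A-/G+ came within 2 log2 units of an A+/G+ array. The difference was 3.62 (SE 0.35, adjusted p = 0.00982, limma), with medians 14.1-fold apart.

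Lum encodes lumican, a keratan sulfate proteoglycan that binds collagen fibrils (chr10:97035210-97035269). It had signals of 11.07, 11.35 and 11.09 in A+/G+ and of 9.46, 9.31 and 8.23 in A-/G+, where replicate 3 was the lowest. The difference was 2.17 (SE 0.36, adjusted p = 0.0309, limma), and the medians were 3.44-fold apart, under the size limit. Bgn encodes biglycan, a proteoglycan of the matrix that carries chondroitin or dermatan sulfate chains. Its signals were 9.53, 9.65 and 9.42 in A+/G+ and 8.32, 7.66 and 7.48 in A-/G+. The difference of 1.71 (SE 0.24, adjusted p = 0.0211, limma) was the smallest of the 10, and the medians were 3.65-fold apart. Like Slc22a6, both Lum and Bgn had an adjusted p above 0.05 without any single A+/G+ array and without A-/G+ replicate 2, which left 3 genes under that limit in each fit without an A+/G+ array and 4 in the fit without A-/G+ replicate 2.

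Dcn and Ogn did not meet the limit on p, although their groups did not overlap either. Dcn encodes decorin, which binds collagen and transforming growth factor beta (chr10:96980233-96980292). It gave 14.12, 14.29 and 13.95 in A+/G+, whereas the A-/G+ arrays gave 13.01, 12.32 and 10.99. The A-/G+ arrays were thus spread over about as much as separated the group means, and the difference was 2.01 (95% confidence interval 0.61 to 3.41, adjusted p = 0.0959, limma). Without A-/G+ replicate 3 the difference was 1.45 and met the limit on p (adjusted p = 0.0381, limma). In another fit without 1 array the adjusted p of Dcn rose to 0.270 (limma). Ogn encodes osteoglycin, also called mimecan (chr13:49719549-49719608). Its signals were 11.08, 11.34 and 10.88 in A+/G+ and 9.99, 9.07 and 8.37 in A-/G+. The difference was 1.96 (SE 0.44, adjusted p = 0.0627, limma), and the medians were 4.01-fold apart. Ogn met the limit on p without A-/G+ replicate 1, but in another fit without 1 array its adjusted p rose to 0.203 (limma).

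Of the 3 forkhead transcription factors, Foxc1 met both limits. Foxc1, which is required for the development of the meninges and the overlying skull, was measured at chr13:31902423-31902482. Its signal was 9.30, 9.38 and 9.17 in A+/G+ and 7.14, 6.72 and 6.81 in A-/G+. Both groups were narrow, and the difference of 2.39 had the smallest error of the 10 (SE 0.13, adjusted p = 0.0038, limma), with medians 5.64-fold apart.

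Foxc2, its paralog with roles in mesenchyme and lymphatic vessels, and Foxd1, a factor of mesenchymal and stromal precursors, gave weaker signals. Foxc2 (chr8:123642693-123642752) gave 6.77, 6.98 and 6.40 in A+/G+ and 3.99, 5.51 and 4.21 in A-/G+, where it was well above background on the array of replicate 2 alone. The difference was 2.15 (95% confidence interval 0.97 to 3.32, adjusted p = 0.0547, limma). Foxc2 met the limit on p without A-/G+ replicate 2, but in another fit without 1 array its adjusted p rose to 0.185 (limma). Foxd1 (chr13:99126452-99126511) gave 7.07, 7.20 and 6.82 in A+/G+ and 5.89, 5.13 and 3.86 in A-/G+, and none of the A-/G+ arrays was well above background. A bound for A-/G+ was formed from the higher of the detection floor and the signal of the probe on each array. The A+/G+ mean was 4.04-fold above this bound, a value that carries no sampling error. The measured means differed by 2.07 (95% confidence interval 0.66 to 3.48, adjusted p = 0.0901, limma). Foxd1 met the limit on p without A-/G+ replicate 3, but in another fit without 1 array its adjusted p rose to 0.259 (limma).

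**Figure D2:**
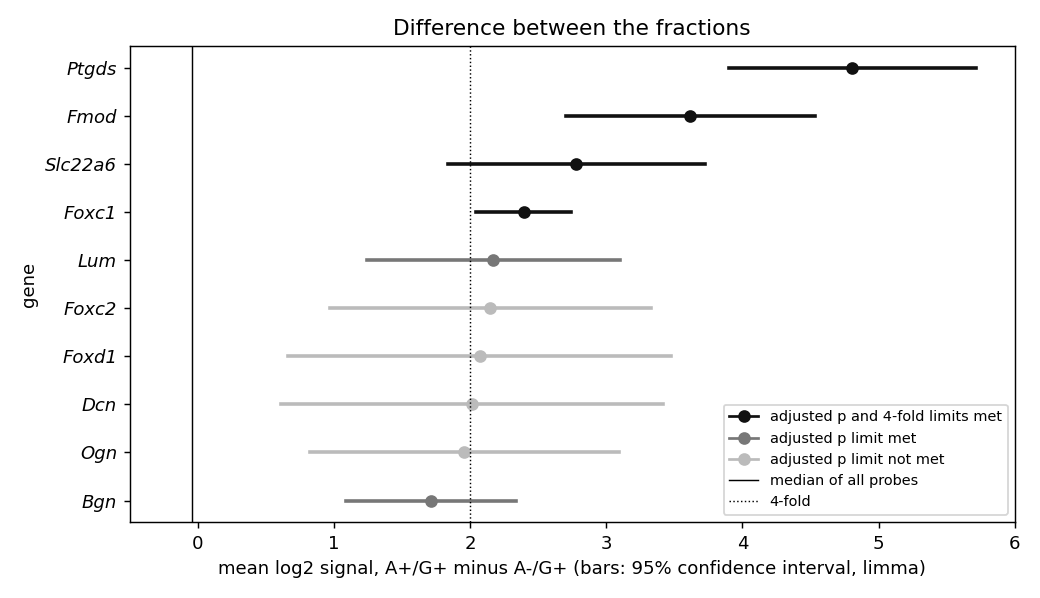
Difference of mean log2 signal, A+/G+ minus A-/G+ (horizontal axis), of each gene, with 95% confidence intervals from limma and with the shade showing which limits were met. The dotted line marks 4-fold, the solid line the median of all probes at -0.04, and the interval of every gene lies to the right of the solid line.

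The spread between replicates was unequal. The SD was larger in A-/G+ than in A+/G+ for 10 of the 10 genes, compared with 77.9% of all probes. The median SD of the 10 genes was 0.18 in A+/G+ and 0.68 in A-/G+, whereas over all probes it was 0.12 and 0.29. The genes also shifted together from array to array. Within A+/G+, replicate 2 was the highest for 10 of the 10 genes and replicate 3 the lowest for 9, while over the 17944 probes well above background on all 6 arrays these shares were 34.6% and 34.2%. Within A-/G+, replicate 1 was the highest for 9 of the 10 and replicate 3 the lowest for 7, with shares of 34.3% and 42.7% over those probes. The fibrillar collagens Col1a1, Col1a2 and Col3a1 had the same order in A-/G+, in which replicate 1 was the highest for 3 of 3 and replicate 3 the lowest for 3 of 3. The mean log2 signal of the 10 genes was 10.59, 10.80 and 10.37 in A+/G+ replicates 1, 2 and 3 and 8.51, 8.06 and 7.48 in A-/G+.

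The genes did not all shift by the same amount. Within an array, the log2 signal of Ptgds minus the mean of the other 9 genes was 5.24 to 5.59 in A+/G+ and 2.19 to 3.91 in A-/G+. For Fmod these values were -1.10 to -0.71 and -2.42 to -1.94, so that both genes lay further below the A+/G+ level than the other genes did. Slc22a6 ran the same way without overlap but by only 0.24, at 1.15 to 1.29 in A+/G+ and 0.75 to 1.11 in A-/G+. Bgn, Lum and Ogn ran the other way without overlap. The values were -1.27 to -1.06 in A+/G+ and -0.44 to -0.004 in A-/G+ for Bgn, 0.54 to 0.80 and 0.83 to 1.38 for Lum, and 0.54 to 0.61 and 0.98 to 1.64 for Ogn. Dcn, Foxd1, Foxc2 and Foxc1 also ran this way on average, by -0.62, -0.55, -0.47 and -0.19, but their ranges overlapped. For all of these genes the mean of the other 9 includes Ptgds and Fmod, whose larger differences lower the value. These contrasts are given as a description, without a test.

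The order of the A-/G+ arrays was different before normalization between arrays. The 75th percentile of the intensity was 332 to 334 on the A+/G+ arrays but 56.6 for A-/G+ replicate 1, 113 for replicate 2 and 251 for replicate 3. These 3 arrays had 18331, 21406 and 24726 probes well above background, whereas the A+/G+ arrays had 26469 to 26653. The deposited intensity of Dcn was 24043 to 32476 in A+/G+ and 2359, 3060 and 2646 in A-/G+ replicates 1, 2 and 3. Dcn thus varied little between the A-/G+ arrays while the array as a whole brightened, and its normalized signal was the lowest on the brightest of them. Ptgds was 50263 to 82328 in A+/G+ and 574 to 2685 in A-/G+. Foxd1 was 186 to 244 in A+/G+ and 17.28 to 19.96 in A-/G+. The intensities of the fractions did not overlap for any of the 10 genes before normalization. The same held for the astroglial marker Fabp7 (115999 to 119901 in A+/G+ and 38154 to 89743 in A-/G+), whose normalized difference was 0.06. The share of all probes without such overlap was not counted, and the part of overall brightness in the normalized differences was not tested.

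**Figure D3:**
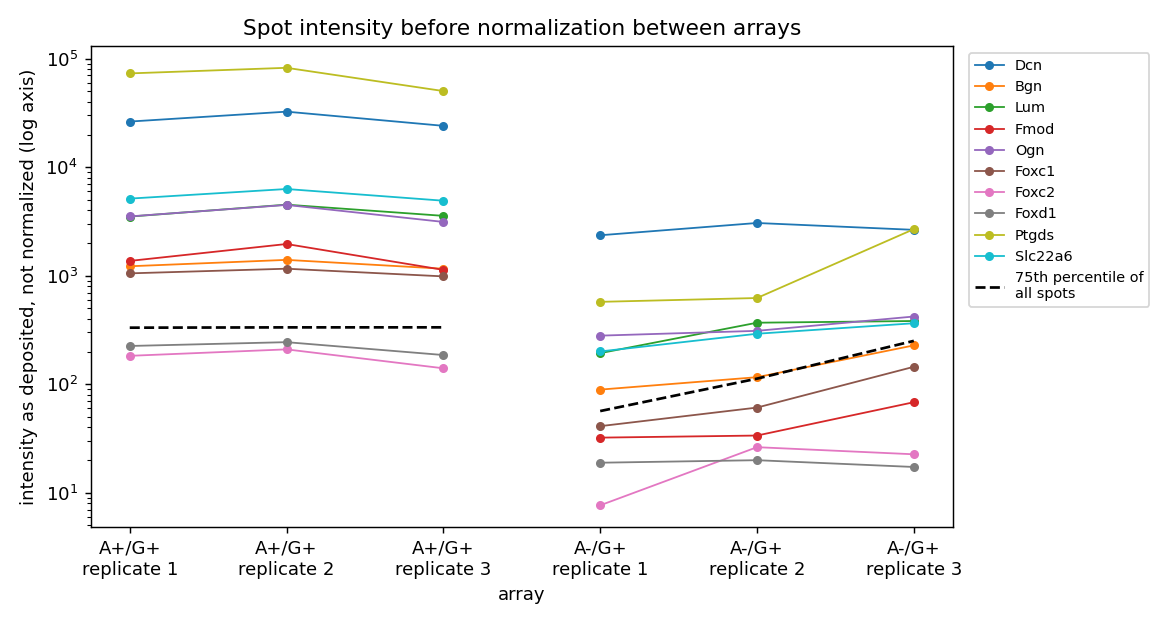
Deposited spot intensity (vertical log axis) of the 10 genes on each array (horizontal axis), with the 75th percentile of all spots dashed. Lines join the values of 1 gene within a fraction and imply no order of the replicates. The percentile is level in A+/G+ and runs from 56.6 to 251 in A-/G+, where Dcn stays between 2359 and 3060.

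Genes related to the 10 by family or position were examined next. Several lie in clusters, and Dcn and Lum are neighbours whose probes are 55.0 kb apart on chromosome 10. Of 12 other leucine-rich proteoglycans, 2 were higher in A+/G+ by the limit on p and 0 in A-/G+ (1 at an unadjusted p below 0.05 by limma, 0 by the methods' t-test), with a median difference of 0.32, and 5 were not well above background on any array. The count in A+/G+ was 0 without any single A+/G+ array, 1 without A-/G+ replicate 1 and 4 without A-/G+ replicate 3, where 1 gene was also higher in A-/G+. Omd, encoding osteomodulin and lying next to Ogn with its probe 31.7 kb away, had signals of 5.84, 6.07 and 5.38 in A+/G+ and was not well above background in A-/G+ (adjusted p = 0.0138, limma). Its A+/G+ mean was 1.82-fold above a bound formed as for Foxd1, again without a sampling error. Prelp, the neighbour of Fmod at 137.1 kb, differed by 1.21 (adjusted p = 0.0236, limma) but was also not well above background in A-/G+, and its bound gave no fold. Kera and Epyc, the cornea and cartilage proteoglycan genes beside Lum, were not well above background on any of the 6 arrays. They were singled out for their position after their values were seen.

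The other forkhead factors of mesenchyme and neural crest had an SE of 0.16 to 1.21, compared with 0.13 to 0.54 for Foxc1, Foxc2 and Foxd1. Of 8, none met the limit on p in either direction (3 toward A+/G+ and 0 toward A-/G+ at an unadjusted p below 0.05 by limma, and 1 and 0 by the methods' t-test), and their median difference was 1.51. Toward A+/G+, 2 met it without A-/G+ replicate 3 and 2 with normexp background correction. Foxl2, their brightest, differed by -0.33 (adjusted p = 0.561, limma). Foxf2 and Foxq1, which lie before Foxc1 on chromosome 13, differed by 1.94 (adjusted p = 0.182, limma) and 1.32 (adjusted p = 0.393, limma). Foxf1, whose probe lies 30.7 kb from that of Foxc2, differed by 2.27 (adjusted p = 0.361, limma). These 3 neighbours were also chosen after their values were seen.

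In the prostaglandin D2 pathway outside Ptgds, 2 of 5 genes were higher in A+/G+ by the limit on p and 0 in A-/G+ (0 at an unadjusted p below 0.05 by limma, 0 by the methods' t-test), with a median difference of 1.39. Ptgs2, the inducible cyclooxygenase that supplies the substrate, differed by 2.21 (adjusted p = 0.00544, limma), and Gpr44, a receptor of prostaglandin D2, by 1.39 (adjusted p = 0.0184, limma). Neither was well above background in A-/G+ samples, and their size therefore has no firm value. Gpr44 was well above background on only 1 of the 3 A+/G+ arrays. The count was 1 without A+/G+ replicate 2 or 3 or A-/G+ replicate 1 and 0 with the 75th percentile shift. Of 4 other Slc22 anion transporters, 1 was higher in A+/G+, with 0 in A-/G+ (0 at an unadjusted p below 0.05 by limma, 0 by the methods' t-test), with a median of 1.48. This was Slc22a7, at 2.07 (adjusted p = 0.00812, limma), well above background on 2 of the 3 A+/G+ arrays and again not in A-/G+ samples. The count of these transporters was 2 without A+/G+ replicate 3 or A-/G+ replicate 2 and 0 with the 75th percentile shift. Slc22a8, which lies beside Slc22a6 and encodes a transporter of overlapping substrates, had signals of 7.74, 7.85 and 7.82 in A+/G+ and 6.54, 5.40 and 6.89 in A-/G+ (difference 1.53, adjusted p = 0.0935, limma). Slc22a8 was likewise chosen after its values were seen.

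Among matrix and growth factor genes that interact with these proteoglycans, few met the limit on p. Of 11, 2 were higher in A+/G+, and 1 was higher in A-/G+ by the limit on p, with a median difference of 0.29. Fn1, encoding fibronectin, gave 13.04, 13.16 and 12.91 in A+/G+ and 11.89, 11.54 and 11.09 in A-/G+ (difference 1.53, adjusted p = 0.0225, limma). Bmp1, the protease that trims procollagens and proteoglycan precursors, differed by 0.54 (adjusted p = 0.0247, limma). Tgfb3, a transforming growth factor, was higher in A-/G+, with a difference of -0.88 (adjusted p = 0.0342, limma). The count in A+/G+ was 0 without any single A+/G+ array or A-/G+ replicate 2 and 3 without A-/G+ replicate 3. The count in A-/G+ was 0 in each fit without 1 array except that without A-/G+ replicate 3, and 0 with the 75th percentile shift and with the methods' t-test.

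Because the lists were chosen with earlier results of these data known, the counts that follow give no independent support for the 10 genes. A further 19 leptomeningeal and fibroblast genes followed the 10 more closely. Of these, 13 were higher in A+/G+ by the limit on p and 0 in A-/G+ (0 at an unadjusted p below 0.05 by limma, 0 by the methods' t-test), 7 met both limits, and 16 had groups that did not overlap. Their median difference was 1.85, and 3 of the 19 had a higher mean in A-/G+. Nov differed by -1.32 (adjusted p = 0.445, limma). Slc47a1 differed by -1.72 (adjusted p = 0.236, limma) and Cdh1 by -0.45 (adjusted p = 0.284, limma), both not well above background on any array. These 3 were named after their values were seen. Crabp2, a retinoic acid binding protein, differed by 2.94 (adjusted p = 0.0381, limma). Slc6a13, a GABA transporter of the meninges, differed by 2.75 (adjusted p = 0.0175, limma), and Apod, a secreted lipocalin, by 2.58 (adjusted p = 0.0201, limma). Without A+/G+ replicate 1, 2 or 3, respectively, 3, 3 and 2 of the 19 met the limit on p, and without A-/G+ replicate 2 it was met by 7. The 3 fibrillar collagens had non-overlapping groups and a median difference of 1.64, but 0 of 3 met the limit on p (3 at an unadjusted p below 0.05 by limma and 3 by the methods' t-test). The limit on p was met by 3 of 3 without A-/G+ replicate 3, with normexp and without dim probes, by 2 with trend and robust variance, and by 1 without A-/G+ replicate 1. Col1a2 gave 15.31, 15.54 and 15.27 in A+/G+ and 14.39, 13.94 and 12.95 in A-/G+ (difference 1.61, adjusted p = 0.0755, limma).

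Markers of other cells were read beside these genes, and their part in the result was not tested. Of 9 pericyte and smooth muscle markers, 4 were higher in A+/G+ by the limit on p, and their median difference was 1.52. All 9 had groups that did not overlap, with A+/G+ above, as the 10 meningeal fibroblast genes did. Rgs5, a pericyte marker, differed by 2.60 (adjusted p = 0.0453, limma) and Pdgfrb by 1.52 (adjusted p = 0.00483, limma). The summed normalized signal of this list, on the linear scale, was 3517 to 4202 in A+/G+ and 961 to 1598 in A-/G+. Of 7 endothelial markers, 1 met the limit on p, Cdh5 with a difference of 1.80 (adjusted p = 0.0182, limma), and the median was 1.80. Cldn5, a tight junction gene of endothelium, gave 12.39, 12.67 and 13.04 in A+/G+ and 9.88, 10.15 and 12.52 in A-/G+. Its A-/G+ replicate 3 was thus the highest, the opposite of the order of the collagens and of 7 of the 10 genes. Without A-/G+ replicate 3, 6 pericyte and 4 endothelial markers met the limit on p, and without A+/G+ replicate 2 or 3 or A-/G+ replicate 2 these were 1 and 0, while without A-/G+ replicate 1 they were 2 and 1 and without A+/G+ replicate 1 they were 3 and 0. The endothelial list summed to 7741 to 11613 in A+/G+ and 1525 to 7937 in A-/G+.

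The remaining marker lists had medians nearer to 0. Of 8 oligodendrocyte lineage markers, 2 were higher in A+/G+, and 1 was higher in A-/G+, with Olig1 at 4.43 (adjusted p = 0.00417, limma) and Olig2 at 4.23 (adjusted p = 0.00389, limma), and their median was 0.69. Their count in A-/G+ was 1 without A-/G+ replicate 1 or 3 and 0 in the other fits without 1 array. Their summed signal was 13191 to 15503 in A+/G+ and 2830 to 4434 in A-/G+. The gene higher in A-/G+ was Mbp, at -0.79 (adjusted p = 0.0487, limma). Another probe of Mbp differed by -2.12 (adjusted p = 0.00381, limma) and met both limits, while a further one differed by -0.0026 (adjusted p = 0.998, limma). Of 8 astroglial markers, 2 were higher in A+/G+, and 1 was higher in A-/G+, with a median of 0.16 and summed signals of 140420 to 154034 and 128690 to 206754. Fabp7, their brightest, differed by 0.06 (adjusted p = 0.884, limma), while Gfap, an intermediate filament gene of astrocytes, differed by 3.03 (adjusted p = 0.0182, limma) and S100b by 1.33 (adjusted p = 0.0352, limma). The gene higher in A-/G+ was Aldh1l1, at -0.64 (adjusted p = 0.0452, limma), and its other probe differed by -1.77 (adjusted p = 0.073, limma). The mean of Slc1a3 also lay toward A-/G+, at -1.19 (adjusted p = 0.0733, limma). The counts of astroglial markers were 0 and 0 without any single A+/G+ array or A-/G+ replicate 1 and with the methods' t-test after adjustment, 2 and 0 without A-/G+ replicate 2, and 1 and 2 without A-/G+ replicate 3. Of 7 choroid plexus markers, 0 met the limit on p in either direction (0 and 0 at an unadjusted p below 0.05 by limma, 0 and 0 by the methods' t-test). Their median was -0.25, and their brightest gene Ttr differed by -0.48 (adjusted p = 0.541, limma). Their summed signal was 24830 to 39141 in A+/G+ and 23575 to 56737 in A-/G+. Of 7 microglia and macrophage markers, 0 met it in either direction (1 and 1 at an unadjusted p below 0.05 by limma, and 1 and 1 by the methods' t-test), with a median of -0.40 and summed signals of 1503 to 2325 and 1903 to 4543. Their brightest gene, the integrin gene Itgam, differed by -0.40 (adjusted p = 0.652, limma). Without A-/G+ replicate 3, 1 of the 7 met the limit in each direction. Markers of each of these lists were well above background on all 6 arrays, between 4 of 9 pericyte markers and 8 of 8 astroglial markers.

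**Figure D4:**
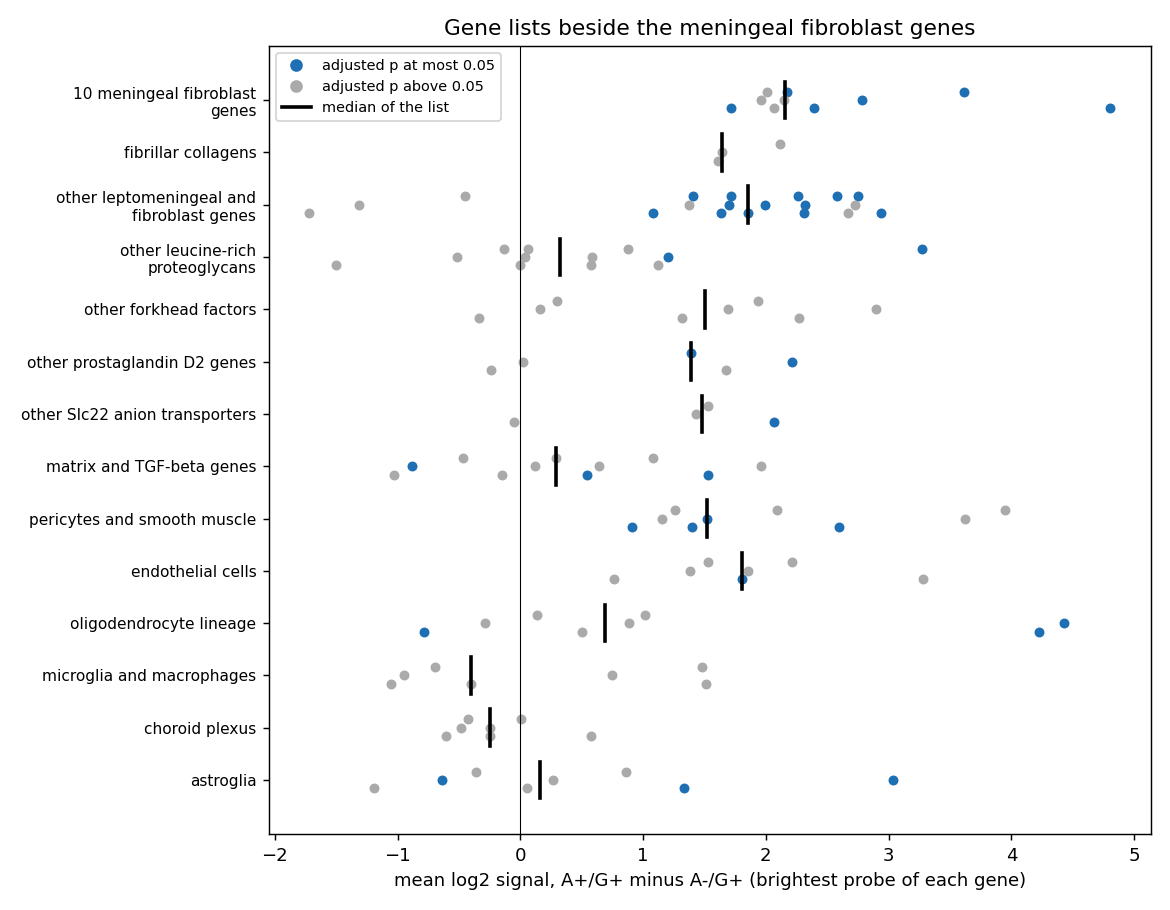
Difference of mean log2 signal, A+/G+ minus A-/G+ (horizontal axis), of the brightest probe of each gene in 14 lists (vertical axis), in blue where the adjusted p was at most 0.05 and gray otherwise, with a bar at the median of each list. The median is 2.16 for the 10 meningeal fibroblast genes, 1.85 for the other leptomeningeal genes and -0.25 for the choroid plexus.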

How the data were processed

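The 6 samples were hybridized to 1-color Agilent arrays, for which the authors deposited the background-corrected intensity of each spot from Feature Extraction 10.7.3.1, and a log2 table that they had quantile normalized and that served as an alternative. Intensities were taken to log2 without control spots and spots marked as outliers, quantile normalized, and averaged per probe. The fit was made across 55681 probes in R 4.3.3 with limma 3.58.1 (Benjamini-Hochberg adjustment), without a filter on dim probes. The limits on p and size were 0.05 (adjusted) and 4-fold medians. Alternatives were the methods' t-test, normexp, a 75th percentile shift, leaving out dim probes, robust variance with a trend, keeping marked spots, averaging the probes of a gene, a 2-fold limit, a replicate block and leaving out each array. The p-values measure the spread between these replicates of pooled cerebella.

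The members and lists were chosen with earlier results of these data known. A gene is its brightest probe over all arrays. Named are the 10 genes, the sorting antigens, up to 3 genes in each direction past the limit on p from each related list (otherwise the brightest), and the brightest and up to 2 such genes from each cell type list. Mbp and Aldh1l1, the cell type markers past the limit on p toward A-/G+, were added after their values were seen. The detection floor is the lowest signal that an array still marked as well above background. Positions of probes follow the array's mm9 annotation, and all 10 symbols were found in RefSeq (GRCm38.p6). Of 200 of 55681 simulated probes changed by 3 on the log2 scale, limma recovered 63%, with 3 false calls. Among the 10 genes only Ptgds and Fmod differed by more than 3, so this share does not describe recovery at the size of the others. The single cell, staining, flow cytometry and grafting data were not analysed here.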

Additional observations from a re-analysis of the deposited data

How the results depend on the processing

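All 10 genes kept a higher mean in A+/G+, with groups that did not overlap, under each alternative run. Only the 75th percentile shift, normexp, the authors' log2 table and keeping marked spots could have changed this order. The other alternatives kept the same normalized values or left out arrays of groups that were already separate. With a 75th percentile shift, which moved the median of all probes to -1.02, the median of the 10 genes was 2.09, Foxc2 met the limits as well, and the probes called numbered 604 toward A+/G+ and 938 toward A-/G+, compared with 851 and 222. With normexp (offset 50), 10 genes met the limit on p, and 234 and 48 probes were called. Without dim probes, 10 genes met it. The methods' t-test left 3 genes under the limit on p (Fmod, Foxc1 and Ptgds) and called 487 and 121 probes. A 2-fold size limit gave 1797 and 1340 probes. With 1 array left out, the genes meeting both limits numbered 3 to 6 and those under the limit on p 3 to 8. Their median difference was 1.88 to 2.49, and the probes called were 340 to 1458 toward A+/G+ and 77 to 490 toward A-/G+. The highest counts of probes came without A-/G+ replicate 3 and the lowest without A+/G+ replicate 2. Fmod, Foxc1 and Ptgds met both limits in each of these fits.

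Whether the replicate numbers pair the samples could not be settled with 3 arrays per fraction. The deviations of same-numbered arrays correlated at 0.20, 0.11 and -0.11 over 17944 probes, and those of differently numbered arrays at -0.24 to 0.17. With the replicate number as a block, limma called 0 of the 10 genes, 0 met the limit on p, 0 genes of any list met it, and 0 and 0 probes were called (10 genes and 5354 and 6317 probes at an unadjusted p below 0.05). The slide could not be fitted as a block, because it coincided with the fraction. Precision is limited by the number of arrays and, for Foxc2 and Foxd1, by signals near background in A-/G+.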
